A study of Mus musculus with 36 samples.

Results

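Complex III, complex IV and ATP synthase form the last 3 stages of mitochondrial oxidative phosphorylation, and cytochrome c carries electrons from the first of them to the second. The genes described here are those whose name on the array starts with Uqcr, Cox4, Cox5, Cox6, Cox7, Cox8 or Atp5, together with Cyc1 and Cycs. This choice used gene names and no measured value. It found 43 genes on 59 probes, against 41174 probes of all kinds, and 41 of the 43 were among the 16501 genes tested. By role they are 8 genes of complex III, 1 gene of cytochrome c, 17 genes of complex IV, 15 genes of ATP synthase and 2 genes that only share the name. The 41 genes passed the filter on dim probes in each of the 3 groups, so no gene entered through 1 group alone, and 40 of them were well above background on all 36 arrays. The exception was Cox6a2, on 10 HF-DR, 12 HF-AL and 10 t0 arrays.

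The study measured gene expression in epididymal white adipose tissue of 36 adult male C57BL/6J mice, 1 array per mouse, in 3 groups of 12. HF-DR mice had 3 weeks of adaptation with free access to a diet with 30% of its energy as fat, then 12 weeks of the same diet restricted to 70 energy% (of what is not stated), with added vitamins and minerals. HF-AL mice stayed on free access for those 12 weeks, and t0 mice were killed at the end of the adaptation. All 3 groups therefore ate the high-fat diet, and no group on another diet was analysed here. Each value below is the log2 ratio of a mouse's Cy5 signal to a Cy3 pool of all samples, so 0 is the level of the pool. Groups were compared with limma in 1 fit over all 36 arrays, and a gene rose or fell where its p, adjusted over all 16501 genes, was under 0.05.

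Complex III passes electrons from ubiquinol to cytochrome c and complex IV passes them from cytochrome c to oxygen, and both pump protons across the inner mitochondrial membrane. ATP synthase lets the protons back through its membrane ring of c subunits, and the turning ring drives ATP formation in its head. Most subunits are encoded in the nucleus, and the catalytic core of complex IV and part of the others in the mitochondrial genome. Several complex IV subunits come in a form made in most tissues and a form made mainly in heart and skeletal muscle, testis or lung. In mice the muscle form Cox8b is also abundant in brown fat.

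The tissue was checked by marker lists. All 11 mature adipocyte markers passed the filter, and so did all 10 fibroblast, 11 macrophage and 8 endothelial markers. In such bulk samples fewer cells of a type and less RNA per cell cannot be told apart. Some arrays also carried transcripts of the neighbouring male tract. The median of the seminal vesicle genes Svs2 to Svs6 was 6.04 and 5.42 on HF-DR arrays 8 and 9, against -5.48 to -0.95 on the other 10 HF-DR arrays. The ciliary gene Tekt1 was at 1.60, 2.48 and 2.65 on HF-AL arrays 5, 7 and 9, against -2.23 to -1.34 on the other 9 HF-AL arrays. The seminal vesicle median on HF-AL arrays 5, 7 and 9 was -5.04, -5.07 and -5.58, so it was not raised along with Tekt1. In HF-DR mice Tekt1 ran from -0.07 on array 8 to 2.11 on array 5. Whether Tekt1 came from the tract was not tested. The share of probes well above background ran from 45.2% to 86.6% per array. The time between the last meal and killing is not stated in the labels.

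In HF-DR mice most of these genes were more highly expressed than in HF-AL mice. Of the 39 subunits and cytochrome c that could be tested, 35 rose and 1 fell, while 28.8% of all genes tested rose and 35.9% fell, 64.8% in all. In the authors' series matrix the balance over all genes turned, where 5203 of 15346 genes rose and 4644 fell. The median difference of the 39 genes was 0.64, or 1.55-fold, against -0.04 for all genes. At least 1.5-fold rises were found for 22 of the 39, against 8% of all genes. For 12 of the 39 every HF-DR array lay above every HF-AL array, which held for 6.23% of all genes. In complex III 8 of 8 genes rose (median 0.87), in complex IV 12 of 15 (median 0.74) and in ATP synthase 14 of 15 (median 0.49).

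**Figure D1:**
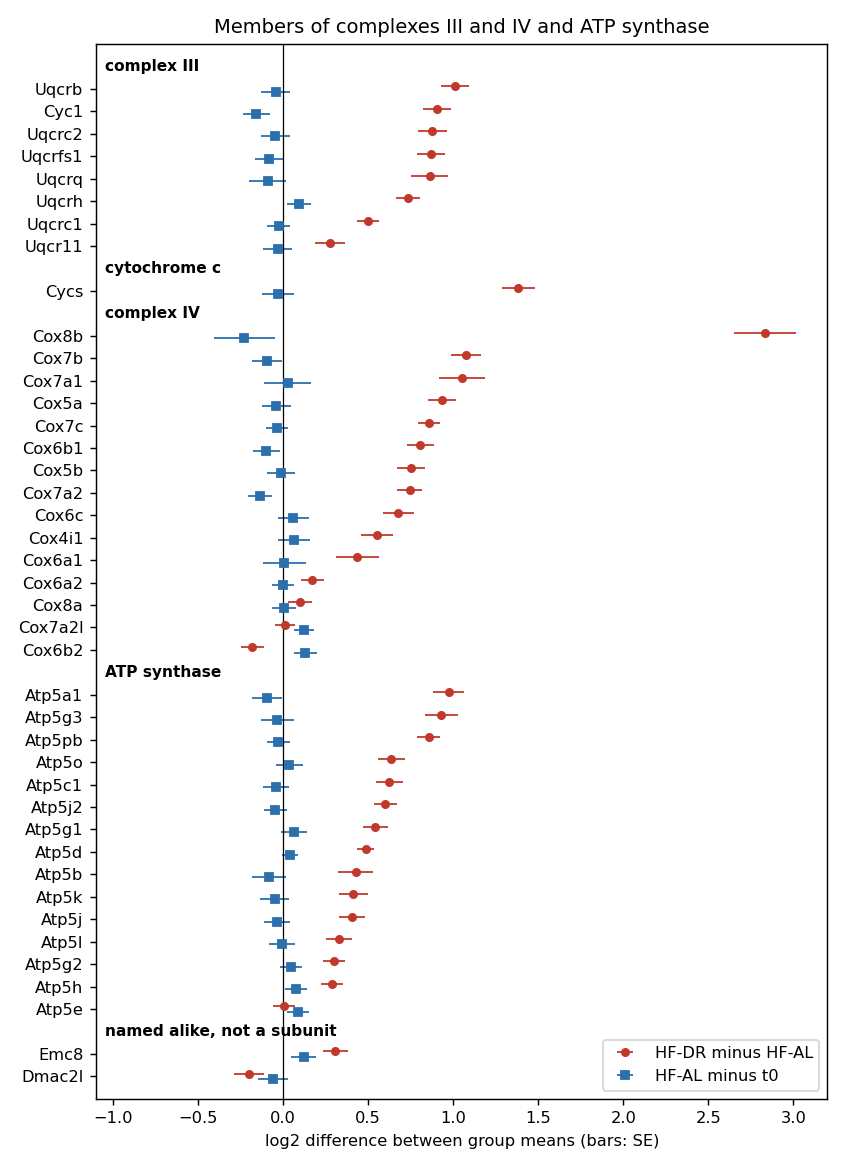
Difference between group means for the 41 members that were tested, on the log2 scale, with bars of 1 SE (12 arrays per group). Red circles are HF-DR minus HF-AL and blue squares are HF-AL minus t0. Most red circles lie right of 0, with Cox8b farthest at 2.83, while the blue squares lie between -0.23 and 0.13.

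All 8 genes of complex III rose. Uqcrb, a small matrix-facing subunit, was at 0.04 (lowest), 0.72 (median) and 1.03 (highest) in HF-DR mice, against -0.70, -0.28 and -0.13 in HF-AL mice, so the groups did not overlap. Its difference was 1.01 ± 0.08 (SE, limma adjusted p = 8.8e-13, 12 HF-DR arrays against the 11 HF-AL arrays with a value). Cyc1, the haem-bearing cytochrome c1, was at 0.16, 0.69 and 0.95 in HF-DR mice, against -0.46, -0.27 and 0.04 in HF-AL mice. Here too all HF-DR arrays were above all HF-AL arrays, with a difference of 0.90 ± 0.08 (SE, limma adjusted p = 4.5e-12). Uqcrfs1, the Rieske iron-sulphur protein, was at 0.13, 0.87 and 1.12 in HF-DR mice, against -0.33, -0.09 and 0.06 in HF-AL mice, again without overlap and with a difference of 0.87.

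Uqcrc1 and Uqcrc2 are the large core proteins on the matrix side. Uqcrc2 differed by 0.88 ± 0.09 (SE, 11 HF-DR arrays) and Uqcrc1 by 0.50 ± 0.07 (SE), and in both the lowest HF-DR array, number 8, lay inside the HF-AL range. Of the small subunits, Uqcrq, which helps bind ubiquinone, differed by 0.86 and Uqcrh, the hinge protein that contacts cytochrome c1, by 0.73. Uqcrh was at 0.23, 0.85 and 1.04 in HF-DR mice, against -0.13, 0.04 and 0.15 in HF-AL mice, which did not overlap. Uqcr11, a peripheral subunit listed as Uqcr on the array, had the smallest rise of the complex at 0.27 ± 0.09 (SE, limma adjusted p = 0.0056). Its values overlapped, at -0.47, 0.11 and 0.27 in HF-DR mice against -0.77, -0.17 and -0.05 in HF-AL mice. Uqcr10, the remaining small subunit, which the name rule leaves out, rose by 0.92 ± 0.08 (SE, limma adjusted p = 1.3e-11).

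Cycs, the somatic cytochrome c, had the second largest difference of all members. It was at 0.15, 1.05 and 1.36 in HF-DR mice, against -0.68, -0.41 and -0.23 in HF-AL mice. All 12 HF-DR arrays were above all HF-AL arrays, and the difference was 1.38 ± 0.10 (SE, limma adjusted p = 4.7e-15), or 2.61-fold. The 3 probes of Cycs differed by 1.05 to 1.38 between the groups.

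In complex IV the common subunits rose by amounts that ran from 0.44 to 1.08, with Cox8a and Cox7a2l below that range. Cox7b, a subunit of the membrane part, was at 0.21, 0.90 and 1.24 in HF-DR mice, against -0.63, -0.17 and -0.03 in HF-AL mice. The groups did not overlap and differed by 1.08 ± 0.09 (SE, limma adjusted p = 3.5e-13). Cox5a, which faces the matrix, was at -0.06, 0.72 and 0.83 in HF-DR mice, against -0.51, -0.35 and -0.16 in HF-AL mice, also apart, with a difference of 0.93 ± 0.08 (SE). Cox7c differed by 0.86 ± 0.07 (SE) and its groups did not overlap, but HF-DR array 8, the lowest for most members, has no value for it. Cox6b1, which bridges the monomers of the complex IV dimer, rose by 0.81 ± 0.08 (SE), the zinc-binding Cox5b by 0.75, Cox7a2 by 0.74 and Cox6c by 0.68. In these 4 genes 10 or 11 of the 12 HF-DR arrays were above all HF-AL arrays.

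Cox4i1, the common form of the largest nuclear subunit, rose by 0.55 ± 0.09 (SE, limma adjusted p = 3.3e-06), and Cox6a1 by 0.44 ± 0.13 (SE, limma adjusted p = 0.0028). Cox6a1 had the widest spread of the 39 genes among HF-DR arrays, with an SD of 0.47, and was at -0.40, 0.75 and 1.23 in HF-DR mice against -0.04, 0.29 and 0.63 in HF-AL mice. Cox8a did not pass, with a difference of 0.10 ± 0.07 (SE, limma adjusted p = 0.21). It was at -0.58, 0.16 and 0.30 in HF-DR mice, against -0.22, 0.03 and 0.22 in HF-AL mice, and without HF-DR arrays 8 and 9 the difference was 0.20 (limma adjusted p = 0.00039). Under a slide block it was 0.25 (limma adjusted p = 0.0023). Such a block draws only on arrays that share a slide with another group, which for HF-DR are arrays 1 to 6. Ndufa4, now counted with complex IV and outside the name rule, rose by 0.41 ± 0.09 (SE, limma adjusted p = 0.00017).

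The tissue-restricted forms of complex IV did not move together. Cox8b, the heart and skeletal muscle form of subunit 8, rose 7.12-fold and had the largest difference of all members. It was at 0.46, 1.69 and 2.19 in HF-DR mice, against -2.03, -1.13 and -0.58 in HF-AL mice. The lowest HF-DR array, number 8, was still above the highest HF-AL array, and the difference was 2.83 ± 0.18 (SE, limma adjusted p = 6.3e-16). Cox7a1, the heart and skeletal muscle form of subunit 7a, was at 0.04, 0.95 and 1.60 in HF-DR mice, against -0.53, -0.13 and 0.17 in HF-AL mice. HF-DR array 8 alone overlapped with HF-AL, and the difference was 1.05 ± 0.14 (SE, limma adjusted p = 2.4e-08), or 2.07-fold.

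Cox6a2, the heart and skeletal muscle form of subunit 6a, was at -0.14, 0.08 and 0.60 in HF-DR mice, against -0.13, -0.04 and 0.15 in HF-AL mice. Only 4 HF-DR arrays were above all HF-AL arrays, and the rise of 0.17 ± 0.07 (SE, limma adjusted p = 0.025) became 0.01 under a slide block (limma adjusted p = 0.93). The highest HF-DR values, 0.60, 0.42 and 0.51, were on arrays 7, 10 and 11. Each of these was alone on its slide, so the block draws nothing from them. Cox6b2, the testis form of subunit 6b, was at -0.47, -0.14 and 0.14 in HF-DR mice, against -0.17, 0.04 and 0.55 in HF-AL mice. It fell by 0.18 ± 0.07 (SE, limma adjusted p = 0.019), and its highest HF-AL values, 0.55 and 0.34, were on arrays 7 and 9, where Tekt1 was high as well. Without those HF-AL arrays the difference was -0.10 (limma adjusted p = 0.11). On HF-AL array 5, with Tekt1 at 1.60, Cox6b2 was at 0.06. On HF-DR arrays 5, 7 and 12, with Tekt1 at 2.11, 2.04 and 2.03, Cox6b2 was at -0.18, 0.03 and 0.04. A link between the 2 genes was not tested. Cox7a2l, a relative of subunit 7a counted above with the common subunits, differed by 0.01 ± 0.06 (SE, limma adjusted p = 0.88, 11 HF-DR arrays).

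The lung form Cox4i2 and the testis form Cox8c did not pass the filter and were not tested. Cox4i2 was well above background on 2 HF-DR, 4 HF-AL and 6 t0 arrays, and Cox8c on 0 HF-DR, 2 HF-AL and 3 t0 arrays. The testis form of subunit 7b was not matched to a probe.

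The start regions of Cox8b and Cox7a1 are shown beside those of their common partners because these are the muscle isoforms with the largest rises. Each is 300 bases of RefSeq sequence on build GRCm38.p6, 250 before and 50 after the annotated start, 5′ to 3′ on the gene's strand. Capitals mark matches to the 6 motifs named further on. Cox8b lies at chr7:140900397-140900696 on the minus strand, Cox8a at chr19:7217567-7217866 on the minus strand, Cox7a1 at chr7:30183921-30184220 on the plus strand and Cox7a2 at chr9:79759804-79760103 on the minus strand.
Cox8b: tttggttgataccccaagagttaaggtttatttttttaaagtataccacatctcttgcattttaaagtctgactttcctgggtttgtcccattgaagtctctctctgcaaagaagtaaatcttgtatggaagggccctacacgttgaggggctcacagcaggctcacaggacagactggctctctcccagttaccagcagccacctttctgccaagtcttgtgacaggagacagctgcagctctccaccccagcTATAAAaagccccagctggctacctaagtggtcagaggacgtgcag
Cox8a: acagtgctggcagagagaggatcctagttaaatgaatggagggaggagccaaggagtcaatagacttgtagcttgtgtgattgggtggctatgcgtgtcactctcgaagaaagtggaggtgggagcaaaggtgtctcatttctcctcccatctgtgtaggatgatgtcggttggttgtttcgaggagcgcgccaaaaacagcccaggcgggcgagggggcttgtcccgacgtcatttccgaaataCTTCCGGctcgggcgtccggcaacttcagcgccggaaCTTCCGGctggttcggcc
Cox7a1: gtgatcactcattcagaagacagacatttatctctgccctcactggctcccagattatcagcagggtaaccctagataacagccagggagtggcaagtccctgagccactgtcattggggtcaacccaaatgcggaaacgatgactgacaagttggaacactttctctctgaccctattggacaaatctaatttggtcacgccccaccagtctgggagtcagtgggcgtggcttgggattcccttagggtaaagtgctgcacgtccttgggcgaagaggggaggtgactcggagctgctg
Cox7a2: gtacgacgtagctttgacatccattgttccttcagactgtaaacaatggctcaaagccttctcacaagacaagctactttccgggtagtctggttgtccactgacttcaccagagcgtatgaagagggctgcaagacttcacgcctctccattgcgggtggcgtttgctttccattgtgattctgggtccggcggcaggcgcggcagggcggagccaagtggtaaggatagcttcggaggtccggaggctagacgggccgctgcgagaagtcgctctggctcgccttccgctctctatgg
The Cox8b window holds 2 CG dinucleotides and a TATAAA match, and the Cox8a window holds 19 CG and 2 matches to the ETS motif. The Cox7a1 window holds 7 CG and the Cox7a2 window 20, and neither holds any of the 6 motifs. The median over the 34 windows of the 31 matched members was 19 CG, against 7 CG over all 32851 windows given by RefSeq here.

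To ask whether isoforms responded unequally, the log2 ratio of the second gene of a pair was subtracted from that of the first on each array. In the pairs of Cox8b, Cox7a1, Cox6a2 and Cox6b2 the second gene was the common form and the first the tissue form. The groups were compared by two-sided permutation tests with 100000 resamples, adjusted over the 21 tests of 7 pairs and 3 comparisons. For Cox8b minus Cox8a the difference averaged 1.54 ± 0.29 in HF-DR mice and -1.19 ± 0.42 in HF-AL mice (SD, n = 12 each). The 12 HF-DR arrays were all above the HF-AL arrays, and the shift of 2.73 ± 0.15 (SE) had a permutation adjusted p of 0.0001. The smallest p the permutations can give is 2e-05. For Cox7a1 minus Cox7a2 the difference averaged 0.43 ± 0.34 in HF-DR mice and 0.12 ± 0.28 in HF-AL mice (SD, n = 12 each), with 4 HF-DR arrays above all HF-AL arrays. The shift of 0.31 ± 0.13 (SE) had a permutation adjusted p of 0.041, and over the 3 slides that held both groups it ran from -0.33 to 0.64. With slide as a block it was 0.38 (adjusted p = 0.1), so the call did not hold there.

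The testis form went the other way relative to its partner. Cox6b2 minus Cox6b1 averaged -0.71 ± 0.27 in HF-DR mice and 0.28 ± 0.29 in HF-AL mice (SD, n = 12 each), with all HF-DR arrays below all HF-AL arrays and a shift of -0.99 ± 0.11 (SE, permutation adjusted p = 0.0001). Cox7a2l minus Cox7a2 averaged -0.64 ± 0.32 in 11 HF-DR mice and 0.13 ± 0.21 in 12 HF-AL mice (SD), a shift of -0.77 ± 0.12 (SE, permutation adjusted p = 0.00017). Cox6a2 minus Cox6a1 shifted by -0.27, with a 95% interval from -0.59 to 0.06 (permutation adjusted p = 0.13), so the pair was not shown to differ. That shift was -0.42 without HF-DR arrays 8 and 9 (permutation adjusted p = 0.007). Under a slide block, which draws nothing from those arrays either, it was -0.66 (adjusted p = 0.00021). These shifts are differences between log ratios, and do not show that either gene stayed the same. The probes of Cox6a2 and Cox6b2 were dim, with a mean log2 intensity of 6.81 and 7.97, and the offset of 50 added to every spot draws the log ratios of dim probes towards 0. In the scanner software's processed signals, to which no offset was added here, Cox6b2 minus Cox6b1 shifted by -1.08 (permutation adjusted p = 6e-05) and Cox6a2 minus Cox6a1 by -0.18 (permutation adjusted p = 0.43).

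The c ring of ATP synthase is encoded by 3 genes whose mature proteins are identical. Atp5g3 rose by 0.93 ± 0.10 (SE, limma adjusted p = 3.2e-10), Atp5g1 by 0.54 ± 0.07 (SE) and Atp5g2 by 0.30 ± 0.07 (SE, limma adjusted p = 0.00016). Atp5g3 was at 0.14, 1.17 and 1.32 on 11 HF-DR arrays, against -0.25, 0.11 and 0.38 on the HF-AL arrays, with 10 HF-DR arrays above all HF-AL arrays. Atp5g2 minus Atp5g3 averaged -0.93 ± 0.34 in HF-DR mice (n = 11) and -0.30 ± 0.32 in HF-AL mice (SD, n = 12), a shift of -0.63 ± 0.14 (SE, permutation adjusted p = 0.00073). Atp5g1 minus Atp5g3 shifted by -0.41 ± 0.16 (SE, permutation adjusted p = 0.028), and by -0.37 without HF-AL arrays 7 and 9 (permutation adjusted p = 0.058).

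**Figure D2:**
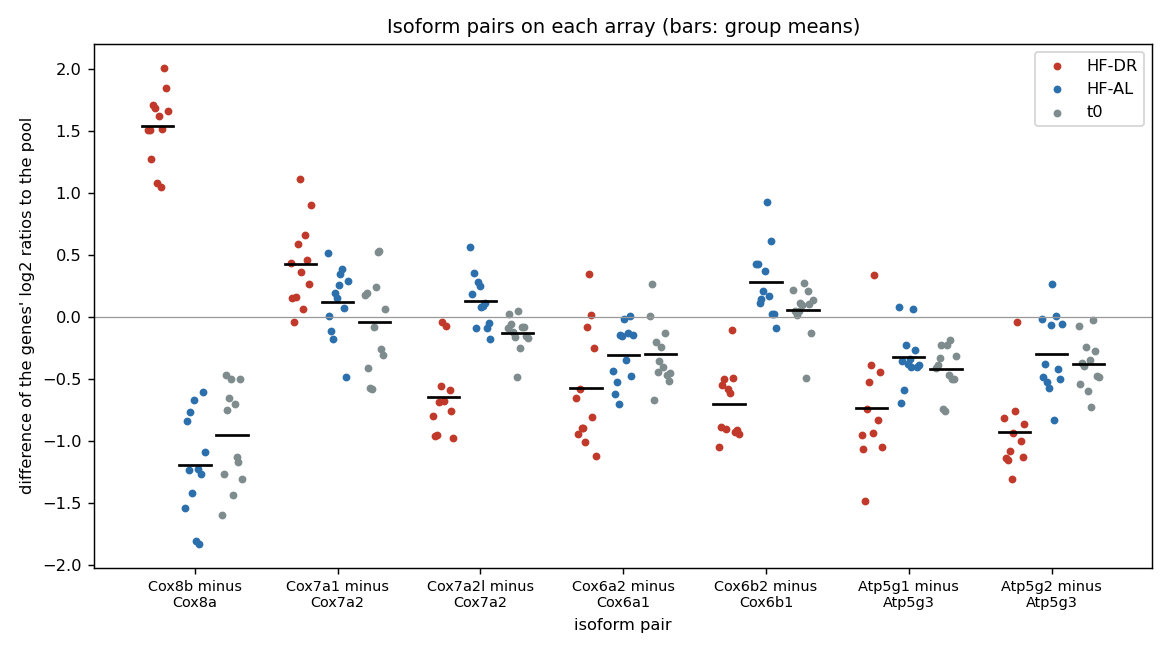
Difference between the log2 ratios of 2 isoforms on each array, by group, for the 7 pairs that could be tested. Points are arrays (HF-DR red, HF-AL blue, t0 grey) and bars are group means. Cox8b minus Cox8a separates HF-DR (all points above 1) from the other groups, and Cox6b2 minus Cox6b1 lies lower in HF-DR than in HF-AL on every array.

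The head of ATP synthase is built of alpha, beta, gamma, delta and epsilon subunits. Atp5a1, the alpha subunit, was at 0.09, 0.89 and 1.29 in HF-DR mice, against -0.34, -0.10 and 0.01 in HF-AL mice. The groups did not overlap and differed by 0.97 ± 0.09 (SE, limma adjusted p = 6.5e-12). The catalytic beta subunit Atp5b rose by 0.43 ± 0.10 (SE, limma adjusted p = 0.0004) on its brightest probe, with values of 0.07, 0.76 and 1.15 in HF-DR mice against -0.06, 0.38 and 0.55 in HF-AL mice. Its 2 dimmer probes gave 0.75 and 0.76. The gamma subunit Atp5c1, which turns inside the head, rose by 0.63 ± 0.08 (SE), and Atp5d, the delta subunit, by 0.49 ± 0.05 (SE) with no overlap. Atp5e, the epsilon subunit, did not pass, at -0.41, 0.12 and 0.28 on 11 HF-DR arrays against -0.13, 0.10 and 0.39 on the HF-AL arrays. Its difference was 0.00 ± 0.07 (SE, limma adjusted p = 0.97), and with a slide block it was 0.19 (limma adjusted p = 0.033).

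The peripheral stalk holds the head still while the ring turns. Of its genes, Atp5pb (subunit b, listed as Atp5f1 on the array) was at 0.31, 0.74 and 1.03 in HF-DR mice, against -0.37, -0.09 and 0.12 in HF-AL mice. Every HF-DR array was above every HF-AL array, and the difference was 0.86 ± 0.07 (SE, limma adjusted p = 1.2e-13). Atp5o, the connector between stalk and head, rose by 0.64 ± 0.08 (SE), Atp5j, subunit F6, by 0.40 and Atp5h, subunit d, by 0.29. The membrane subunits Atp5j2 (f), Atp5k (e) and Atp5l (g), of which e and g take part in pairing the enzyme into dimers, rose by 0.60, 0.41 and 0.33. A second, dim probe of Atp5j2 differed by -0.02. Atpif1, the inhibitor that holds the enzyme back when it runs in reverse and which the name rule leaves out, fell by 0.42 ± 0.14 (SE, limma adjusted p = 0.0085).

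The 2 genes that only share a name were Emc8 (Cox4nb on the array), a subunit of a membrane protein insertion complex next to Cox4i1 in the genome, and Dmac2l (Atp5s on the array), a factor found with ATP synthase. Emc8 rose by 0.31 ± 0.07 (SE, limma adjusted p = 0.00048), but its second probe differed by -0.34. Dmac2l fell by 0.20 ± 0.09 (SE, limma adjusted p = 0.048), its second probe differed by 0.12, and without HF-DR arrays 8 and 9 the difference was -0.13 (limma adjusted p = 0.18). Of the 13 members with several probes that passed, 10 gave the same direction on all of them, and the other 3 were Emc8, Dmac2l and Atp5j2.

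Averaged over the 39 genes per array, HF-DR mice were at 0.53 ± 0.23, HF-AL mice at -0.13 ± 0.07 and t0 mice at -0.11 ± 0.10 (SD, n = 12 each). HF-DR arrays 8 and 9, at -0.02 and 0.17, were below the other 10 HF-DR arrays, which lay between 0.47 and 0.74. Of the 39 genes, 25 had their lowest HF-DR value on array 8 and 9 on array 9. The median SD of a gene among HF-DR arrays was 0.26 with these 2 arrays and 0.14 without them, against 0.14 in HF-AL and 0.14 in t0. On the same arrays the mean of 9 skeletal muscle markers was 0.63 and 0.52, against -0.55 to -0.01 on the other 10. The part of tract and muscle transcripts in the lower values was not tested. Without these 2 arrays, 36 of the 39 genes rose and 1 fell, with a median difference of 0.73. Of all 16501 genes 5041 rose and 6335 fell in that setting.

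**Figure D3:**
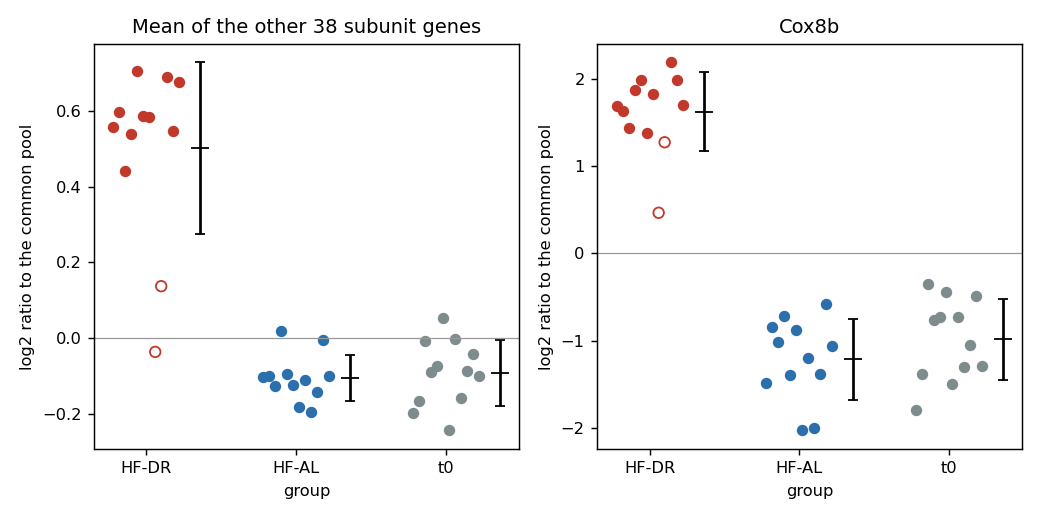
Log2 ratio to the common pool on each array, as the mean of the 38 subunit genes other than Cox8b (left) and for Cox8b (right), by group. Filled points are arrays, open points are HF-DR arrays 8 and 9, and black bars show the group mean ± SD. In the left panel array 8 lies at -0.04, within the HF-AL range, while in the right panel all HF-DR arrays lie above all HF-AL and t0 arrays.

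Several arrays shared slides. Only 3 of the 21 slides held both HF-DR and HF-AL arrays, and on those 36 of the 39 genes were higher in HF-DR on every one of the 3 slides. The exceptions were Cox7a2l, Cox6b2 and Atp5k, and the like share of all genes was not computed. With slide as a block 36 of the 39 genes rose and 1 fell, with a median difference of 0.69. Of all 16501 genes 3924 rose and 4708 fell in that setting, with a median of -0.05. HF-DR arrays 7 to 12 and HF-AL arrays 1, 2 and 3 were each alone on a slide, and the block draws no difference from them. All results with slide as a block therefore rest on HF-DR arrays 1 to 6 and do not check the other HF-DR mice. Within slides Cox8b differed by 2.21 to 3.06, Cycs by 1.04 to 1.46 and Cox7a1 by 0.40 to 1.35.

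**Figure D4:**
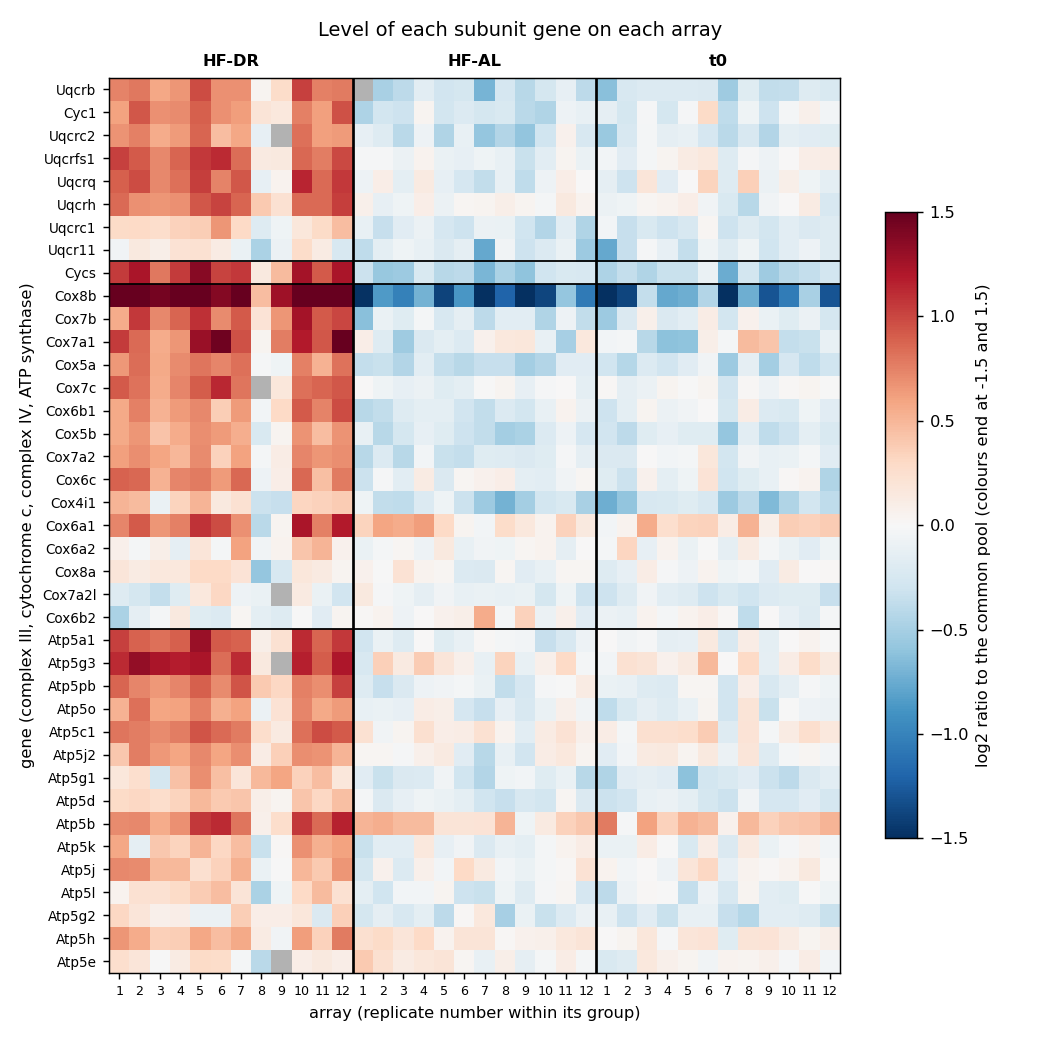
Log2 ratio to the common pool for the 39 subunit and cytochrome c genes (rows, by complex and then by difference) on the 36 arrays (columns, by group). Red is above the pool, blue below, grey without a value, and colours end at -1.5 and 1.5. HF-DR columns are mostly red except array 8, where 18 of the 39 genes were above 0, against 26 on array 9. The Cox8b row holds the deepest colours in all 3 groups.

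After 12 weeks of free feeding, no member passed the test against t0. Of the 41 members 0 rose and 0 fell between HF-AL and t0 by limma, and 1 had an unadjusted p under 0.05, while 0.455% of all genes rose and 0.23% fell, 0.685% in all. Of all genes 0.0545% rose at least 1.5-fold and 0.0242% had every HF-AL array above every t0 array, and neither held for any member. The median difference of the 39 genes was -0.03, against 0.01 for all genes. The largest difference was that of Cox8b at -0.23, with a 95% interval from -0.59 to 0.14, followed by Cyc1 at -0.16 (interval -0.32 to 0.01). These tests use a spread shared by all 3 groups, to which HF-DR arrays 8 and 9 contribute. Without those arrays 0 of the 41 members rose and 0 fell. Cox8b was at -2.03, -1.13 and -0.58 in HF-AL mice, against -1.79, -0.90 and -0.36 in t0 mice. Both groups spread widely for this gene, with an SD of 0.46 in HF-AL and 0.47 in t0, against a median SD of 0.14 over the 39 genes in each. In t0 the 3 arrays with the lowest Cox8b, numbers 1, 7 and 2, were also the 3 with the lowest mean of the other 38 genes, at -0.20, -0.24 and -0.16. Age and length of feeding cannot be told apart in this comparison.

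Of the 7 isoform pairs, 2 passed between HF-AL and t0. Cox7a2l minus Cox7a2 averaged 0.13 ± 0.21 in HF-AL mice and -0.13 ± 0.14 in t0 mice (SD, n = 12 each), a shift of 0.26 ± 0.07 (SE, permutation adjusted p = 0.0028). Cox6b2 minus Cox6b1 shifted by 0.23 ± 0.10 (SE, permutation adjusted p = 0.049), and by 0.13 without HF-AL arrays 7 and 9 (permutation adjusted p = 0.17). The other 5 pairs did not pass, and Cox8b minus Cox8a shifted by -0.24 with an interval from -0.58 to 0.11.

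Set against t0, HF-DR mice showed rises in 35 of the 39 genes and falls in 0, while 28.8% of all genes tested rose and 33% fell, 61.8% in all. This comparison uses the same HF-DR arrays as that with HF-AL, and age and restriction cannot be told apart in it. The median was 0.62, against -0.01 for all genes, and 23 of the 39 rose at least 1.5-fold, against 8.14% of all genes. For 8 genes all HF-DR arrays were above all t0 arrays, against 7.51% of all genes. Cox8b differed by 2.60 ± 0.18 (SE, limma adjusted p = 5.4e-15), or 6.08-fold, Cycs by 1.35 ± 0.10 (SE) and Cox7a1 by 1.08 ± 0.14 (SE). Cox7a1 was at 0.04, 0.95 and 1.60 in HF-DR mice, against -0.61, -0.08 and 0.48 in t0 mice, with overlap. The 4 genes that did not pass were Cox8a at 0.11, Atp5e at 0.09, Cox7a2l at 0.14 and Cox6b2 at -0.05. With slide as a block Cox8a passed at 0.23 (limma adjusted p = 0.0017) and Atp5e at 0.21 (limma adjusted p = 0.0089), and without HF-DR arrays 8 and 9 they passed at 0.21 (limma adjusted p = 0.00028) and 0.14 (limma adjusted p = 0.027). Both settings draw nothing from arrays 8 and 9, so they are not separate checks. Cox6a2, among the 35, was at 0.02 with slide as a block (limma adjusted p = 0.75). Of the pairs, Cox8b minus Cox8a shifted by 2.49 ± 0.14 (SE, permutation adjusted p = 0.0001) and Cox7a1 minus Cox7a2 by 0.47 ± 0.15 (SE, permutation adjusted p = 0.01). In the other direction, Cox6b2 minus Cox6b1 shifted by -0.76 (permutation adjusted p = 0.0001), Cox7a2l minus Cox7a2 by -0.51 (permutation adjusted p = 0.00073) and Atp5g2 minus Atp5g3 by -0.55 (permutation adjusted p = 0.00056). The remaining pairs, Cox6a2 minus Cox6a1 at -0.27 and Atp5g1 minus Atp5g3 at -0.31, did not pass. Dmac2l fell by 0.26 ± 0.09 (SE, limma adjusted p = 0.011), and by 0.19 without HF-DR arrays 8 and 9 (limma adjusted p = 0.053).

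Most genes that work with these complexes also rose in HF-DR against HF-AL. Of 40 genes of complex II and complex I, 36 rose and 0 fell, with a median of 0.59, such as Sdhd (0.76 ± 0.06, SE), an anchor subunit of complex II, and Ndufa11 (1.03 ± 0.08, SE) of complex I. Of 24 genes for complex IV assembly and copper delivery, 20 rose and 1 fell, with a median of 0.49. Cox16, an assembly factor for the second mitochondrially encoded subunit, rose by 0.71 ± 0.05 (SE, limma adjusted p = 7.7e-15), Fastkd2, a mitochondrial RNA-binding protein, rose by 0.66, and Coa3 fell by 0.14. With slide as a block 18 of the 24 rose and 0 fell, and the calls of Coa3, Surf1 and Cox17 were lost, with limma adjusted p of 0.4, 0.21 and 0.91. Cox17 differed by 0.60 without the block and 0.042 with it. Of 6 complex III assembly genes 5 rose, led by Ttc19 (0.74) and Bcs1l (0.44), which takes part in inserting the Rieske protein. Of 3 ATP synthase assembly genes, Tmem70 (0.58 ± 0.07, SE) and Atpaf1 (0.29 ± 0.08, SE) rose.

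In the list of ATP and phosphate exchange and the outer membrane 8 of 9 genes rose, with a median of 0.64. Slc25a5, the ATP/ADP carrier of most tissues, rose by 1.15 ± 0.08 (SE, limma adjusted p = 2.9e-15), Timm23, a pore of the inner membrane protein import machinery, rose by 0.85 ± 0.07 (SE), and the muscle ATP/ADP carrier Slc25a4 differed by -0.02 (limma adjusted p = 0.84). Of 11 regulators of mitochondrial biogenesis 5 rose and 2 fell, with a median of 0.13, a share called that was near the 64.8% of all genes. Esrra, the oestrogen-related receptor alpha, rose by 0.88 ± 0.10 (SE) and Tfb2m, a mitochondrial transcription factor, by 0.81 ± 0.08 (SE), while Yy1 fell by 0.18 and Gabpa by 0.11. The largest difference of this list was that of Ppargc1a at 1.18. With slide as a block 5 of the regulators rose and 0 fell, with a median of 0.018, and without HF-DR arrays 8 and 9 it was 5 and 3, with a median of 0.073. The 10 mitochondrially encoded genes listed were not matched to probes here. Between HF-AL and t0 0 genes of these lists passed by limma. The widest difference there was that of the copper chaperone Cox17 at -0.70 ± 0.20 (SE, limma adjusted p = 0.089), which passed without HF-DR arrays 8 and 9 (limma adjusted p = 0.032). Leaving out HF-DR arrays does not touch a difference between HF-AL and t0. It changes only the spread shared by the 3 groups and the adjustment.

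**Figure D5:**
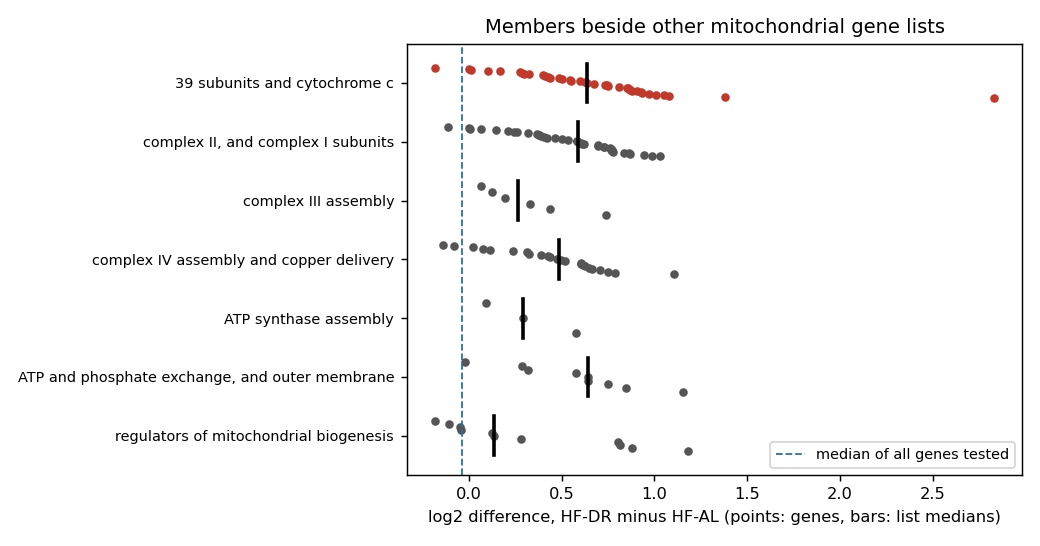
Log2 difference between HF-DR and HF-AL for each gene (points) of the 39 members (red) and of 6 lists of related genes (grey), with list medians as black bars and the median of all genes tested as a dashed line at -0.04. The medians of complex II and I genes (0.59) and of exchange genes (0.64) lie near that of the members (0.64), and that of biogenesis regulators (0.13) lies lower.

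Cox8b and Cox7a1 are known from brown fat and muscle, so markers of both were read beside them. Of 15 brown and beige markers 9 were tested, of which 6 rose and 2 fell, with a median of 1.22. Of all genes 28.8% rose and 35.9% fell. Elovl3, a fatty acid elongase of brown fat, rose by 4.50 ± 0.13 (SE, limma adjusted p = 8.7e-26), and Kcnk3, a potassium channel of brown adipocytes, by 1.76 ± 0.09 (SE), while Ebf2 fell by 0.88 and Prdm16 by 0.35. The mean of the 9 markers was 0.74 ± 0.33 in HF-DR mice, -0.58 ± 0.12 in HF-AL mice and -0.68 ± 0.17 in t0 mice (SD, n = 12 each). Ucp1, the defining uncoupling protein, did not pass the filter and was well above background on 6 HF-DR, 0 HF-AL and 3 t0 arrays. Otop1, Lhx8, Zic1, Tmem26 and Tnfrsf9 did not pass either.

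Of 15 skeletal muscle markers 9 were tested, of which 1 rose and 4 fell, with a median of -0.17. Of all genes 28.8% rose and 35.9% fell, and the share of muscle markers called was below the 64.8% of all genes. Mb, the oxygen store myoglobin, rose by 0.99 ± 0.10 (SE, limma adjusted p = 1.6e-10) and Myh2, a fast myosin, fell by 0.53 ± 0.08 (SE). The mean of the 9 ran from -0.55 to 0.63 in HF-DR mice and from -0.19 to 0.04 in HF-AL mice. The other 6 did not pass the filter. Of these Ckm was well above background on 3 HF-DR, 0 HF-AL and 2 t0 arrays, Pvalb on 1 HF-DR, 0 HF-AL and 3 t0 arrays and Tnnt3 on 1 HF-DR, 4 HF-AL and 6 t0 arrays. Myh4, Ckmt2 and Myoz1 were so on 0 HF-DR arrays and on 1 to 4 arrays of each of the other groups. On HF-DR array 8, which had the highest muscle mean, Cox8b and Cox7a1 were at their lowest HF-DR values. That array was the lowest for 25 of the 39 genes. On array 9, with the second highest muscle mean at 0.52, Cox8b was at 1.27 and Cox7a1 at 0.77. The other 10 HF-DR arrays ran from 1.38 to 2.19 for Cox8b and from 0.55 to 1.60 for Cox7a1. The part of muscle in these values was not tested.

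Markers of other cell types were read against the 28.8% of all genes that rose and the 35.9% that fell. Of the mature adipocyte markers 1 rose and 6 fell of 11, with a median of -0.34. With slide as a block 4 of them rose and 3 fell (median -0.12), and without HF-DR arrays 8 and 9 it was 3 and 5 (median -0.19). Of the macrophage markers 1 rose and 9 fell of 11, and of the fibroblast markers 0 rose and 8 fell of 10. Slc2a4, the insulin-responsive glucose transporter, rose by 1.25 ± 0.12 (SE), whereas Plin1, the coat protein of lipid droplets, fell by 0.91 ± 0.11 (SE). Lyz2 and Csf1r of macrophages fell by 1.37 and 0.95, and Col1a1 and Gsn of the fibroblast list differed by -2.05 and -2.12. Of 8 endothelial markers 1 rose and 4 fell, with Cldn5 lower by 1.19 ± 0.14 (SE) and Esam by 0.41 ± 0.09 (SE). The shares called in the adipocyte and endothelial lists were near the 64.8% of all genes. Of 5 testis markers tested 1 rose, Tekt1 by 2.20, and Prm2 differed by -0.71 (limma adjusted p = 0.065). Of 6 epididymis and seminal vesicle markers tested 4 rose, among them Pate4 by 2.98 and Svs2 by 2.12, against 2 without HF-DR arrays 8 and 9 and 0 with slide as a block. The block draws nothing from HF-DR arrays 7, 8 and 9, which had the highest seminal vesicle medians of their group. The part of cell makeup in the differences of the members was not tested.

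RefSeq windows were found for 31 of the 39 members. Those not searched were Atp5a1, Cox4i1, Cox6a2, Cox6c, Cyc1, Uqcrb, Uqcrc2 and Uqcrq. The windows were searched for 6 motifs on both strands, GCGCAN followed directly by GCGC (NRF1), CCGGAAG (ETS), AAGGTCA (ERR), AAGATGGC (YY1), TGACGTCA (CRE) and TATAAA, and no matches to different motifs overlapped in the members' windows. The NRF1 motif was found in 8 of the 34 member windows (23.5%), against 4.6% of all windows. The ETS motif was found in 10 (29.4%) against 8.86%, and the ERR motif in 4 (11.8%) against 4.72%. The YY1 motif was in 3 (8.82%) against 2.75%, the CRE motif in 2 (5.88%) against 1.79%, and TATAAA in 2 (5.88%) against 13.6%. The NRF1, ETS and CRE motifs contain CG, and the member windows had a median of 19 CG against 7 over all windows. Shares in windows of like CG content were not compared. A match is a description of these letters and not a site of binding.

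Cox6a1 and Atp5k are shown as windows with more than 1 kind of motif, and Cycs because it had the largest difference after Cox8b and holds the CRE motif. Cox6a1 lies at chr5:115348909-115349208, Atp5k at chr5:108434350-108434649 and Cycs at chr6:50566520-50566819, all on the minus strand of GRCm38.p6, with matches in capitals.
Cox6a1: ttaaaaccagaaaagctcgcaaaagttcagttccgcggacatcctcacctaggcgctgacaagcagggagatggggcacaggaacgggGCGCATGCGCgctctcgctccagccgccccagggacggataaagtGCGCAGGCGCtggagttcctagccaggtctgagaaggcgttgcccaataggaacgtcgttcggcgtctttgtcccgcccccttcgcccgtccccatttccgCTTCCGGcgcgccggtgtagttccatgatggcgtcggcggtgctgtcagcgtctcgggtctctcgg
Atp5k: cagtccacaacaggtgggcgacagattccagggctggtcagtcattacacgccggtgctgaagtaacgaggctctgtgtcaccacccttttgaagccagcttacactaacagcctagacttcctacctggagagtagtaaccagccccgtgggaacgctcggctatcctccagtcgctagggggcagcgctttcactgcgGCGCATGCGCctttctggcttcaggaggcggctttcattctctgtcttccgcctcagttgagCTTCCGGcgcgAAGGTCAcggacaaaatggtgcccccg
Cycs: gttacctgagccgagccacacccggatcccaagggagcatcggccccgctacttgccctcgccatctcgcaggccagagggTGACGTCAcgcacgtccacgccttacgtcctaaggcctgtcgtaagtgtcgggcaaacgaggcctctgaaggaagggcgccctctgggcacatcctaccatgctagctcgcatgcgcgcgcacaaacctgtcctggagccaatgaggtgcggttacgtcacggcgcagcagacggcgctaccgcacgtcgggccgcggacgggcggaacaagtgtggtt
The Cox6a1 window holds 2 NRF1 matches and an ETS match, and the gene rose by 0.44. The Atp5k window holds an NRF1, an ETS and an ERR match, and the gene rose by 0.41. Over the 8 members with the NRF1 motif, the differences between HF-DR and HF-AL ran from 0.29 for Atp5h to 0.93 for Atp5g3. The members with the largest differences, Cox8b (2.83), Cycs (1.38), Cox7b (1.08) and Cox7a1 (1.05), held no exact NRF1 match. Near matches were not sought, and Uqcrb (1.01), next in size, was among the members not searched. A link between motif and difference was not tested. Among the 31 members searched, Atp5l also held TATAAA, and it rose by 0.33.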

How the data were processed

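The authors deposited 36 scans of 2-colour Agilent arrays, read out by Feature Extraction 9.5.3.1, Agilent's scanner software, per the submitters' processing notes. Per the labels, 500 ng of RNA of each mouse was used for both dyes, and each mouse's Cy5 sample was hybridised with a Cy3 pool of all samples, in 1 dye orientation, so a dye effect cancels between groups but was not measured. The deposited intensity values, per the file headers, are mean spot signals and median local backgrounds on a linear scale, not normalised. A series matrix, also deposited by the authors, gives log2 values of 22510 probes, which follow the Cy5 signal (r 0.98 to 0.993 per array) and not the ratio (r 0.0438 to 0.207), with medians of 9.26 to 9.29. Its scale between arrays and its making are not given in the sources used here.

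Background was corrected by normexp (limma 3.58.1 in R 4.3.3, offset 50) with parameters fitted without spots whose net signal was under -50, followed by loess of each array's ratios (4 iterations, control spots weighted 0). Spots with outlier marks were left out, and no member's spots were saturated. Probes had to be well above background in Cy5 on 9 or more of a group's 12 arrays, in any group, and the brightest probe of each gene was used. Probes were named by accession, symbol or synonym in the mouse RefSeq table (GRCm38.p6). Groups were compared with limma, with Benjamini-Hochberg adjustment over 16501 genes, and isoform pairs by permutation tests in SciPy 1.17.1. The step across genes was tested on simulated data. Each array is 1 mouse, and the number of arrays limits the precision. Single values of 6 members are missing on HF-DR arrays 8 or 9 or HF-AL array 1 because the spot was marked. Replicate numbers were not treated as pairing mice across groups.

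The members and lists were chosen with earlier results of these data known. Every member is accounted for. Of each pathway list the text names the 2 genes with the smallest adjusted p between HF-DR and HF-AL and up to 2 that passed against the majority, and of each marker list the 2 with the smallest adjusted p. Slc25a4, Cox17, Surf1, Ppargc1a, Ebf2, Prdm16, the genes below the filter, and HF-DR arrays 8 and 9 and HF-AL arrays 7 and 9 were picked after their values were seen. Alternatives changed the background correction, signals, normalisation, filter, probe choice, blocks and arrays, and scaling between arrays and leaving out HF-DR arrays 8 and 9 or HF-AL arrays 7 and 9 were chosen after seeing the data. Some alternatives overlap, since slide as a block also draws nothing from HF-DR arrays 8 and 9.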

Additional observations from a re-analysis of the deposited data

How the results depend on the processing

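Members were 36 that rose and 2 that fell between HF-DR and HF-AL. The number that fell was 1 with the series matrix, no filter, the mean of a gene's probes, slide as a block, without HF-DR arrays 8 and 9, without HF-AL arrays 7 and 9, with scaling between arrays, without HF-DR array 5 and with only the compared groups fitted. It was 0 without the 6 arrays set aside for seminal vesicle or Tekt1 transcripts, which were HF-DR arrays 7, 8 and 9 and HF-AL arrays 5, 7 and 9. HF-DR arrays 5 and 12, with Tekt1 at 2.11 and 2.03, were kept in that setting. Between HF-DR and t0 the 1 that fell became 0 with the mean of probes, slide as a block, without the 6 arrays and without HF-DR arrays 8 and 9.

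Cox6a2 minus Cox6a1 between HF-DR and HF-AL passed at -0.52 with the series matrix, -0.66 with slide as a block, -0.42 without the 6 arrays and -0.42 without HF-DR arrays 8 and 9. Between HF-DR and t0 it passed at -0.58, -0.50 and -0.42 with the last 3 of these. Between HF-AL and t0 it was -0.01 and turned to 0.049 with normexp on all spots, 0.046 with processed signals, 0.13 with the series matrix, 0.085 with slide as a block and 0.0087 with scaling. Cox7a1 minus Cox7a2 between HF-DR and HF-AL did not pass at 0.25 with normexp on all spots, 0.082 with the series matrix, 0.38 with slide as a block, 0.24 with scaling and 0.29 without HF-DR array 5, nor against t0 at 0.30 with the series matrix. Atp5g1 minus Atp5g3 between HF-DR and HF-AL did not pass at -0.37 without HF-AL arrays 7 and 9 and -0.25 with scaling. Between HF-DR and t0 it passed at -0.43 with processed signals, -0.43 with slide as a block, -0.41 without the 6 arrays and -0.42 without HF-DR arrays 8 and 9. Cox6b2 minus Cox6b1 between HF-AL and t0 did not pass at 0.19 with normexp on all spots, 0.13 without the 6 arrays, 0.13 without HF-AL arrays 7 and 9, 0.21 with scaling and 0.23 without HF-DR array 5, which changes the adjustment alone. Atp5g2 minus Atp5g3 between HF-AL and t0 turned to -0.0066 without HF-AL arrays 7 and 9. The causes of the other changes were not tested.

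Of single genes between HF-DR and HF-AL, Atp5e turned to -0.038 without HF-AL arrays 7 and 9, -0.027 with scaling and -0.016 without HF-DR array 5, Cox7a2l to -0.028 with processed signals and -0.012 without HF-DR array 5, and Emc8 to -0.018 with the mean of its probes, which differ in sign. Of 1218 values of single genes under alternatives, 1168 kept direction and call. Aquantile scaling leaves all log ratios as they were, so its 87 values, counted among the 1168, could not change.

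Replicate numbers were not treated as pairs of mice, though correlations between arrays cannot exclude a pairing. Among the other group's 12 arrays, the same-numbered one correlated best for 2 HF-DR arrays set against HF-AL. The number was 1 for HF-AL against t0 and 0 for HF-DR against t0. Of 12 same-numbered pairs, 9 correlated above 0.1 between HF-DR and HF-AL (highest 0.40), 0 between HF-DR and t0, and for HF-AL with t0 the number was 2. With the replicate block 36 members rose and 2 fell between HF-DR and HF-AL, 36 rose and 1 fell between HF-DR and t0, Cox6b2 minus Cox6b1 between HF-AL and t0 was 0.23 (adjusted p = 0.059), and Atp5e was -0.0030.

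Over all genes, calls between HF-DR and HF-AL were 4759 up and 5929 down, and 5203 and 4644 with the series matrix. Between HF-DR and t0 they were 4747 and 5447, and 4783 and 4629 with the series matrix. Between HF-AL and t0 they were 75 up and 38 down, against 52 and 66 with the series matrix, 95 and 116 with processed signals, 71 and 14 with normexp on all spots, 47 and 24 with no filter, 159 and 146 with only those groups fitted, 296 and 216 with scaling, 42 and 21 without HF-AL arrays 7 and 9, 233 and 195 without HF-DR arrays 8 and 9, and 149 and 96 without the 6 arrays. Signal over background limits Cox4i2 and Cox8c, which were not tested.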
